A study of Punica granatum with 14 samples.

Results

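Leaves of pomegranate (Punica granatum) seedlings kept on mannitol were compared with leaves of untreated control seedlings (CK), with both mannitol concentrations taken as 1 group. The comparison used 6 of the 14 RNA-seq libraries of the study, chosen by their treatment labels: 4 mannitol libraries, from 2 plants at 2.5 g/L and 2 plants at 15 g/L, and 2 CK libraries, in a fit of these 6 libraries only. The wider experiment applied 3 plant growth retardants (PGRs), paclobutrazol, B9 and mannitol, to ask how they dwarf the plants, and sequenced leaves from 2 concentrations of each, picked by the growth of the plants. All 6 plants were of the cultivar Hongmanao, were labelled wild type (wt), were raised in tissue culture on WPM medium with sucrose, agar and the auxin IBA, and were sampled at 90 days. Mannitol plants had received 2.5 or 15 g/L mannitol and CK plants distilled water over that time.

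Mannitol is a sugar alcohol that plant cells generally take up and metabolise poorly. Dissolved in a culture medium it lowers the water potential around the roots and shoots, so it is commonly used to impose osmotic stress and to slow the growth of plants held in vitro. Plants under osmotic stress typically close their stomata, accumulate compatible solutes and change the transcription of many genes, in part through abscisic acid. The genes below carry RefSeq identifiers without product names in the tables used here, so they are described by identifier, RNA class, position in the gene order and level, and the label "leaf" was not checked against marker genes.

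The 6 libraries held 22882715 to 25139447 counts assigned to 27893 listed genes, of which 18718 passed the filter on low counts and were tested. The RNA was bulk leaf RNA, so fewer cells of a type and less RNA per cell cannot be told apart. Plants of the same condition resembled each other most: Pearson's r of log2 CPM (counts scaled to a common library size) across genes was 0.973 between the 15 g/L plants, 0.955 between the 2.5 g/L plants and 0.971 between the CK plants. Across the doses r was 0.937 to 0.951, and between a mannitol and a CK plant it was 0.929 to 0.952, so these ranges overlapped. Genes annotated as rRNA took 4985 CPM in mannitol 2.5 g/L plant 1, against 665.9 to 985.6 in the other mannitol libraries and 663.2 and 769.2 in CK, and the part of this in the results below was not tested.

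**Figure D1:**
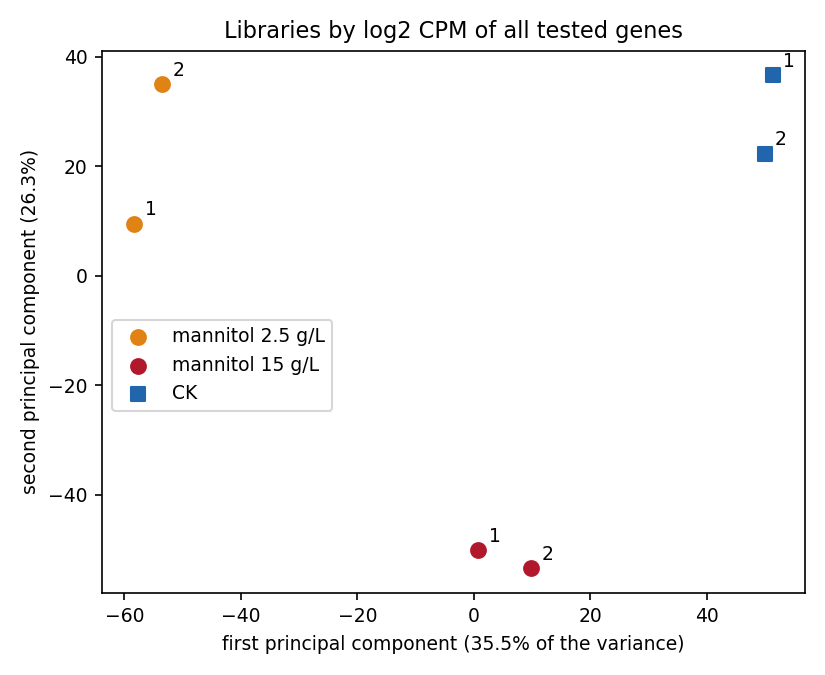
Each point is a library, placed by the first (35.5% of the variance) and second (26.3%) principal components of log2 CPM over all tested genes, without units; orange circles are mannitol 2.5 g/L, red circles mannitol 15 g/L and blue squares CK, with the plant number beside each. The 15 g/L libraries lie at 0.778 and 9.80 on the first axis and at -50.1 and -53.4 on the second, apart from the 2.5 g/L libraries on the left and CK on the right.

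The first question was which genes changed under mannitol at both doses. In mannitol leaves 27 genes were differentially expressed (DEGs; absolute log2 fold change over 1 and adjusted p under 0.05), 17 upregulated and 10 downregulated. These were 0.144% of the tested genes (0.0908% up and 0.0534% down), and all 27 had an adjusted p of 0.0477 in the quasi-likelihood test of edgeR, adjusted by the Benjamini-Hochberg method. The median log2 fold change over all tested genes was 0.00, with a median standard error (SE) of 0.24. Of the 27 genes 25 were protein coding and 2 were long non-coding RNAs (lncRNAs), none overlapped another listed gene, and no pair of them stood side by side in the gene order. All 4 mannitol libraries lay beyond both CK libraries at each of the 27 genes, which was also true of 27% of all tested genes.

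The list was short and sensitive to single plants: edgeR called 14 genes, 8 of them among the 27, without mannitol 2.5 g/L plant 2, and 0 genes without each of the other 5 plants in turn, where 754 to 1077 genes still had an unadjusted p under 0.05 and passed the fold threshold. DESeq2 called 559 genes on the same libraries, with all 27 among them, while the 2.5 g/L and 15 g/L plants fitted alone against CK gave 1 and 271 calls. Of the 27 genes, 0 were called in the 2.5 g/L fit and all 27 in the 15 g/L fit. Where 1 CK plant was left, it was assumed to vary like the mannitol plants. No DEG changed direction in any of these fits, but groups that did not overlap left little room for a reversal. The libraries of a condition came from separate plants, and whether these came from separate explants is not stated, so the p-values measure only the spread between these samples.

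**Figure D2:**
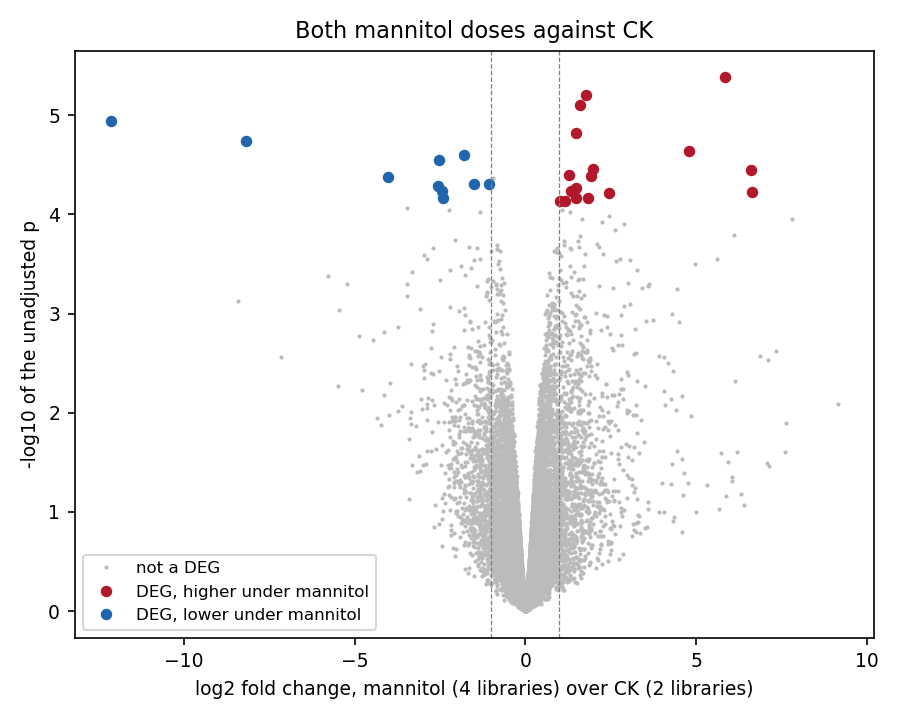
Each point is 1 of the 18718 tested genes, with the log2 fold change of the 4 mannitol libraries over the 2 CK libraries across and -log10 of the unadjusted p up; dashed lines mark a log2 fold change of 1 in either direction. Red points are the 17 genes higher under mannitol and blue points the 10 lower genes that passed both thresholds, and the fitted change of the blue point at the far left depends on a prior count because that gene had no count in any mannitol library.

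The 4 upregulated DEGs with the largest changes were low in CK leaves. LOC116211229 had 20.6 and 15.0 CPM at 2.5 g/L and 36.7 and 53.7 CPM at 15 g/L, against 0.267 and 0.361 CPM in CK, a log2 fold change of 6.63 ± 0.76 (SE). Its lowest mannitol library was 41.6-fold above its highest CK library. The mannitol libraries of LOC116196150 had 7.78 and 5.81 CPM (2.5 g/L) and 8.38 and 5.86 CPM (15 g/L), and its CK libraries 0.152 and 0.0803 CPM. Its change was 5.83 ± 0.45 (log2, SE), and the plants of both doses gave overlapping levels. LOC116194566 reached 103, 59.9, 108 and 72.8 CPM under mannitol, against 1.79 and 4.34 CPM in CK (log2 fold change 4.81 ± 0.48). The lncRNA gene LOC116198709 had 252 and 100 counts at 2.5 g/L and 120 and 101 counts at 15 g/L, against 2 counts and 1 count in CK. This is a 107-fold ratio of depth-scaled counts, with an exact 95% interval of 36.5 to 521 that covers counting error only.

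The other 6 genes among the 10 highest-ranked upregulated DEGs were expressed in every CK library. LOC116209163 averaged 245 ± 55.5 CPM in mannitol leaves (SD, n = 4) and 44.6 ± 11.3 CPM in CK leaves (SD, n = 2), with 286 and 300 CPM at 2.5 g/L and 203 and 192 CPM at 15 g/L. For LOC116197866 the mannitol plants had 257, 290, 189 and 206 CPM and the CK plants 67.8 and 64.5 CPM, a log2 fold change of 1.83 ± 0.22 (SE). RefSeq lists 11 transcripts for this gene, and the counts do not separate them. LOC116200770 was the steadiest of the 6 across the mannitol plants, at 251, 241, 248 and 268 CPM under mannitol and 80.3 and 67.5 CPM in CK (log2 fold change 1.77 ± 0.14). LOC116196349 was similarly even, with 37.5, 44.3, 41.7 and 43.1 CPM under mannitol and 13.1 and 14.6 CPM in CK (1.59 ± 0.13). LOC116198767 had 39.2, 36.7, 32.9 and 26.7 CPM in mannitol plants and 7.69 and 9.60 CPM in CK plants (1.97 ± 0.21). Values of LOC116204018 were 15.9, 17.2, 19.6 and 19.8 CPM in mannitol plants and 4.07 and 5.54 CPM in CK plants (1.91 ± 0.21). In these 6 genes the gap between the nearest mannitol and CK libraries was smallest at LOC116196349 (2.57-fold) and largest at LOC116209163 (3.66-fold). The test favours genes with a small spread within groups beside the distance between them, so nothing is read from that spread.

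The remaining 7 upregulated DEGs, named here after their values were seen, had log2 fold changes of 1.02 to 1.49. LOC116199590 had 896, 868, 851 and 861 CPM in mannitol leaves and 329 and 357 CPM in CK leaves, a log2 fold change of 1.34 ± 0.15 (SE). LOC116213739 had 240, 263, 223 and 221 CPM under mannitol and 94.7 and 99.0 CPM in CK (1.29 ± 0.14). LOC116212869 had 152, 140, 123 and 136 CPM under mannitol and 58.5 and 64.4 CPM in CK (1.16 ± 0.14). The 4 mannitol values of each of these 3 genes lay in a narrow band at both doses, which the test itself favours. The next 3 were LOC116200241, with a log2 fold change of 1.49 ± 0.17, LOC116188516, with 1.49 ± 0.18, and LOC116188000, with 1.48 ± 0.14. LOC116214978 stood nearest to the fold threshold, at 60.8, 55.4, 62.3 and 58.4 CPM under mannitol and 31.1 and 27.4 CPM in CK, with a log2 fold change of 1.02 ± 0.12 (SE). Just outside the fold threshold, with the same adjusted p of 0.0477 in edgeR's test, were LOC116205936 at 0.96 ± 0.11 and LOC116209317 at -0.93 ± 0.10, which bring the genes that passed on p alone to 29 (0.155% of those tested).

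**Figure D3:**
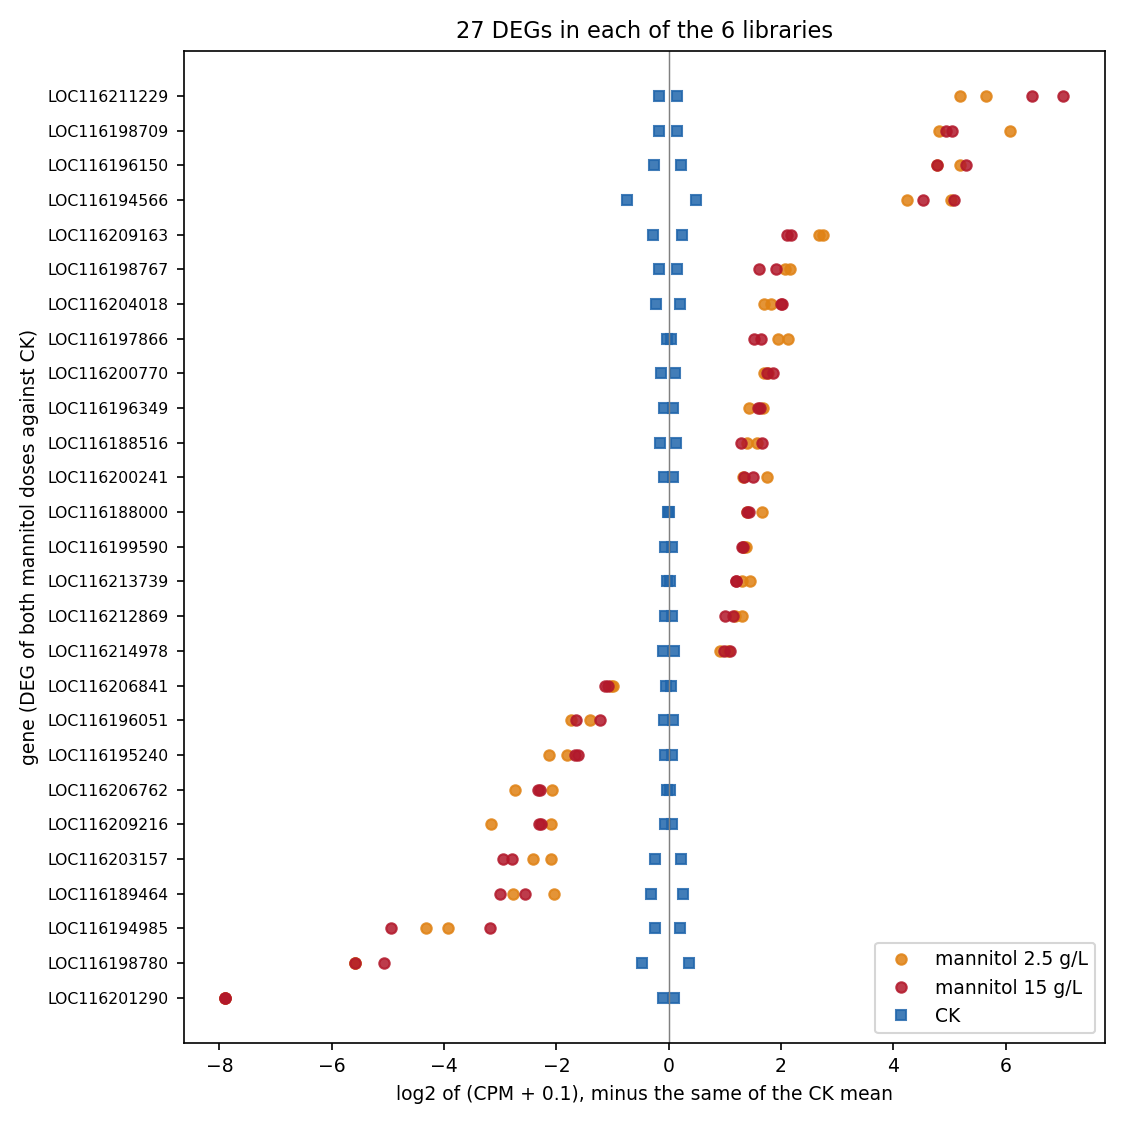
Each row is 1 of the 27 DEGs, ordered by its change; points give log2 of (CPM + 0.1) in each library minus the same value of the CK mean, for mannitol 2.5 g/L (orange circles), mannitol 15 g/L (red circles) and CK (blue squares). In every row all mannitol points lie on 1 side of both CK points. The ranges of the orange and red points overlap in many rows and are apart in others, among them LOC116211229, LOC116209163, LOC116203157, LOC116197866 and LOC116198767.

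Among the 10 downregulated DEGs, 2 were at or near 0 in every mannitol library. LOC116201290 had 0 counts in all 4 mannitol libraries and 661 and 551 counts in CK (25.2 and 22.1 CPM). Against a floor of 3 counts per library it was at least 180-fold lower under mannitol. LOC116198780 had 0, 0, 1 and 0 counts under mannitol and 88 and 150 counts in CK, so that the depth-scaled level in CK was 425 times that under mannitol, with an exact 95% interval of 75.5 to 16840 from counting error alone. The other 8 genes kept measurable levels under mannitol.

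LOC116194985 had 1.76, 2.36, 1.12 and 4.03 CPM in mannitol leaves and 31.4 and 43.1 CPM in CK leaves, a log2 fold change of -4.01 ± 0.44 (SE). LOC116189464 had 102, 168, 118 and 86.0 CPM in mannitol plants and 826 and 560 CPM in CK plants (-2.55 ± 0.29). LOC116203157 had 8.79 and 11.1 CPM at 2.5 g/L and 6.06 and 6.80 CPM at 15 g/L, against 55.1 and 39.9 CPM in CK (-2.53 ± 0.26). In these 3 genes the CK plants differed from each other by a larger ratio than in the other downregulated genes with levels in both groups. As at all 27 DEGs, no mannitol plant overlapped them. LOC116209216 had 3.24, 6.86, 6.10 and 5.91 CPM under mannitol and 28.5 and 31.0 CPM in CK (-2.43 ± 0.28). The lncRNA gene LOC116206762 had 1.72, 1.05, 1.42 and 1.45 CPM under mannitol and 7.39 and 7.71 CPM in CK (-2.41 ± 0.28). LOC116195240 had 5.38, 6.69, 7.39 and 7.69 CPM under mannitol and 22.7 and 24.9 CPM in CK (-1.81 ± 0.18). At these 3 genes the CK plants were close to each other and well above the plants of both doses, which the test itself favours. LOC116196051 had 46.6, 58.7, 66.5 and 49.3 CPM under mannitol and 146 and 165 CPM in CK (-1.49 ± 0.17). LOC116206841 had the smallest decrease among the 10 and also their smallest relative spread across mannitol plants, at 14.7 ± 0.638 CPM in mannitol leaves (SD, n = 4) and 30.6 ± 1.22 CPM in CK leaves (SD, n = 2), a log2 fold change of -1.06 ± 0.12 (SE).

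The second question was how far the doses shared these changes. Each dose alone was past the fold threshold in the same direction at 26 of the 27 DEGs, with LOC116214978 at 1.04 for 15 g/L and 0.99 for 2.5 g/L; over all tested genes the share was 5.39% (3.11% above CK at both doses and 2.28% below). The fit treats a difference between doses as spread within mannitol, so it favoured genes alike at both doses. Nothing is read from these shares. Among the 24 DEGs with more than 3 counts in some library of each group, the change was larger at 15 g/L in 11 and larger at 2.5 g/L in 13, a split that the same choice of genes shapes. Nearly equal at the doses were LOC116196150, with log2 changes of 5.87 at 15 g/L and 5.80 at 2.5 g/L, LOC116188516 with 1.49 at both, and LOC116206762 with -2.39 at 15 g/L and -2.44 at 2.5 g/L.

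Compared directly, 15 g/L and 2.5 g/L differed at no gene by the same thresholds in edgeR's quasi-likelihood test, with a smallest adjusted p of 0.0648. At an unadjusted p under 0.05, 4359 of 18718 genes (23.3%) differed between doses, 1464 of them (7.82% of those tested) also by more than the fold threshold, and DESeq2 called 963 genes. Without mannitol 2.5 g/L plant 1 edgeR called 78 genes between the doses, and 5, 1 and 2 genes without 2.5 g/L plant 2, 15 g/L plant 1 and 15 g/L plant 2, the lone plant of a dose being assumed to vary like the other groups. Of the 27 DEGs 4 had an unadjusted p under 0.05 between doses. LOC116211229 was higher at 15 g/L than at 2.5 g/L by 1.34 ± 0.25 on the log2 scale (SE; edgeR adjusted p = 0.0695), its change against CK being 7.15 at 15 g/L and 5.81 at 2.5 g/L. LOC116209163 had changes of 2.15 at 15 g/L and 2.72 at 2.5 g/L, LOC116197866 of 1.58 and 2.05, and LOC116203157 of -2.88 and -2.26 in the same order. None of the 4 passed the adjusted test between doses.

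Beyond the DEGs, 1001 genes (5.35%) had an unadjusted p under 0.05 and a log2 fold change over 1 in either direction, 543 higher (2.9%) and 458 lower (2.45%) under mannitol. At 803 genes (4.29%) both doses were past the fold threshold in 1 direction and no mannitol library overlapped CK, 449 of them above CK (2.4%) and 354 below (1.89%). These are descriptions of size and overlap, since all but 27 of the tested genes failed the adjusted test together with the fold threshold.

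By RNA class, DEGs were found among protein-coding genes (16 up and 9 down of 17896 tested) and lncRNA genes (1 up and 1 down of 767 tested). Of the tested lncRNA genes 10.9% passed the unadjusted threshold and fold, 41 higher and 43 lower under mannitol, and of the protein-coding genes 5.12% did. The median count level of the tested lncRNAs was 2.27 CPM and that of the protein-coding genes 19.2 CPM (not scaled to gene length), and the part of this in the share was not tested. Genes for snoRNAs, small RNAs that guide the chemical modification of rRNA, had a median log2 fold change of 0.29 over the 40 tested, and none was called. The summed level of all 262 listed snoRNA genes was 63.6, 60.0, 59.0 and 53.2 CPM in the mannitol libraries and 42.4 and 47.4 CPM in CK, with all mannitol libraries above both CK libraries. The sum of the protein-coding genes was likewise above both CK libraries in every mannitol library. Taken singly, 5 of the 40 tested snoRNA genes lay above CK in this way and 0 below, against 13.9% and 13% of all tested genes. The 11 tested rRNA genes had a median log2 fold change of 1.60, also with none called, and mannitol 2.5 g/L plant 1 was the library of high rRNA content given above.

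A set of 25 genes was present in 1 group and at the floor in the other, with at least 10 counts in every library of 1 group and at most 3 in every library of the other. In mannitol 12 genes were present and at the floor in CK (0.043% of the listed genes), 7 protein coding and 5 lncRNA. In CK 13 genes were present and at the floor under mannitol (0.0466%), 10 protein coding and 3 lncRNA. Of the 25 genes 23 were tested and 3 were called, LOC116198709, LOC116201290 and LOC116198780.

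Of the uncalled genes present under mannitol, LOC116213204 had 51, 41, 64 and 42 counts in mannitol leaves and 2 and 0 in CK leaves, a depth-scaled ratio of 55.5 (exact 95% interval 15.2 to 462). The lncRNA gene LOC116200185 had 51, 31, 44 and 32 counts under mannitol and 0 and 1 in CK. The lncRNA gene LOC116213527 had 39, 67, 29 and 30 counts under mannitol and 1 and 3 in CK. The rule that picked these 3 genes required at least 10 counts in every mannitol library, so their presence at both doses was set in advance. The lncRNA gene LOC116189418, named after its values were seen, had 26, 28, 26 and 28 counts under mannitol, 0 in both CK libraries and 0 to 9 in the 8 libraries of the other PGRs. By contrast, at least 10 counts were present in 7 of those 8 libraries for LOC116213204, 6 for LOC116200185 and 5 for LOC116213527. Of the 12 genes present under mannitol, 0 were at the floor in all 8. In the other direction, LOC116198565 had 0 counts in all 4 mannitol libraries and 54 and 38 in CK, at least 13.6-fold lower under mannitol against the floor of 3 counts per library. The lncRNA gene LOC116202798 had 0, 0, 0 and 1 counts under mannitol and 24 and 22 in CK.

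Some of these genes were neighbours in the RefSeq gene order. LOC116201290 lies next to LOC116198565, and LOC116198780 next to LOC116200335, which had 0, 0, 1 and 0 counts in mannitol libraries and 12 and 24 in CK. The DEG LOC116194985 lies next to LOC116195130, with 0, 0, 1 and 0 counts under mannitol and 12 in each CK library. The first pair was either present or at the floor as a unit in all 14 libraries. LOC116201290 had 1051 and 1 counts in the paclobutrazol 6 mg/L plants, 0 in both 8 mg/L plants, 0 and 1268 in the B9 6 mg/L plants and 956 and 846 in the B9 8 mg/L plants. LOC116198565 had 56 and 0, 0 and 0, 0 and 156, and 61 and 57 counts in the same plants. Both genes thus differed between the plants of a single condition at paclobutrazol 6 mg/L and B9 6 mg/L. Of the 27893 listed genes, some had at most 3 counts in 1 plant of a condition and at least 10 in the other. These were 391 genes at mannitol 2.5 g/L, 333 at mannitol 15 g/L and 311 in CK. At 6 and 8 mg/L they were 549 and 306 genes for paclobutrazol and 376 and 323 for B9. Splits with at least 100 counts in the other plant were fewer. They numbered 24, 10 and 7 in mannitol 2.5 g/L, 15 g/L and CK, 26 and 0 for paclobutrazol, and 20 and 8 for B9. With 2 CK plants, the absence of a gene from mannitol leaves and a difference between plants cannot be told apart.

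**Figure D4:**
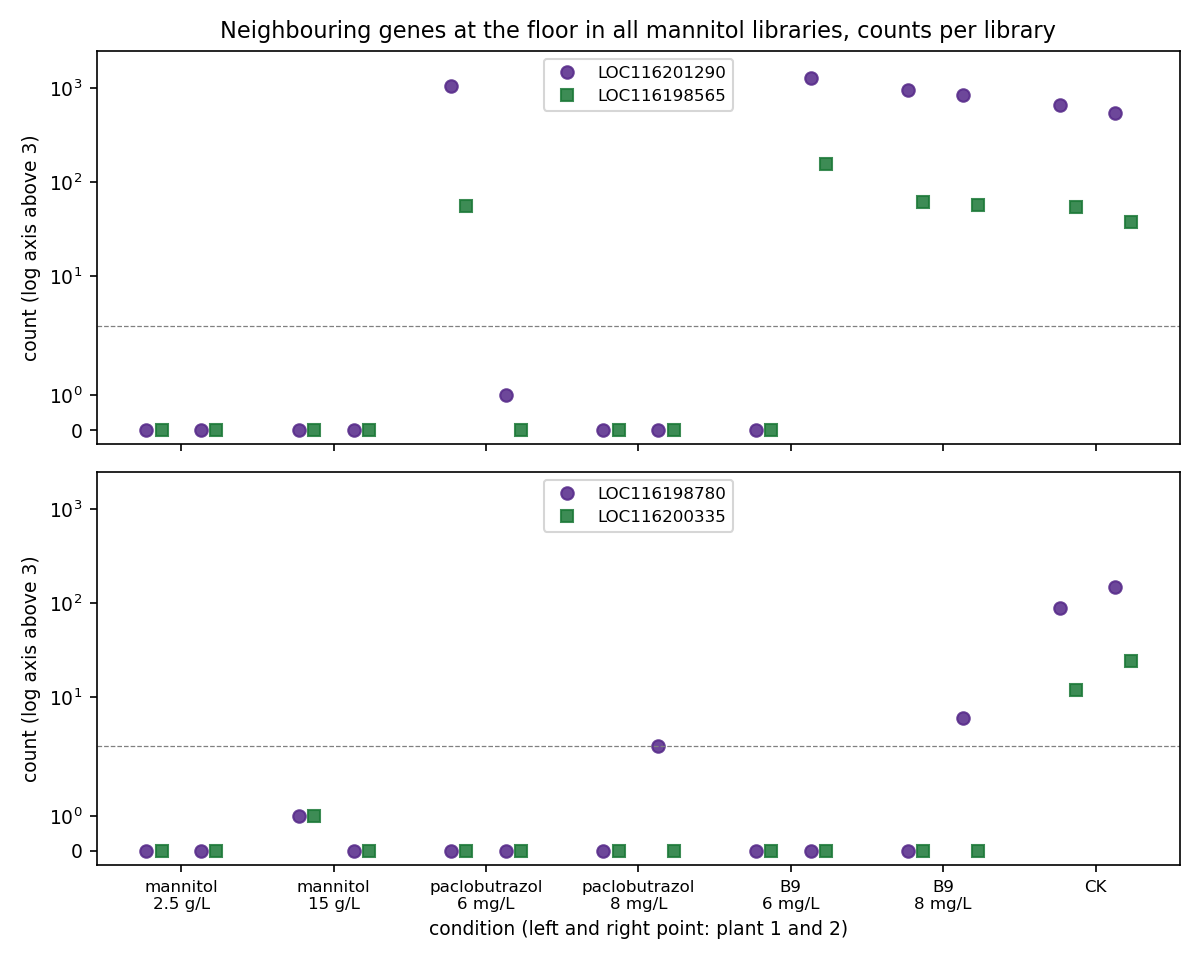
Counts per library (log axis above 3, dashed line at 3) of 2 pairs of neighbouring genes in all 7 conditions, the left and right point of each condition being plants 1 and 2; purple circles and green squares are the genes of a pair. The upper pair (LOC116201290 and LOC116198565) is at 0 in all mannitol plants and present in CK, and changes together between plants of the same condition elsewhere; the lower pair (LOC116198780 and LOC116200335) is at 12 counts or more in CK alone.

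Genes past the unadjusted threshold in the same direction also stood side by side. Of the 535 genes placed on chromosomes that were higher under mannitol at an unadjusted p under 0.05 and past the fold threshold (2.89% of 18534 placed genes), 5.98% of the tested neighbours were higher by the same rule. For the 456 lower genes (2.46%) the share was 7.46%. This made 32 neighbouring pairs of higher genes and 34 of lower genes, against 15 pairs of opposite direction. Overlapping genes, whose reads cannot be told apart where the counting did not use strand, made up 1 of the 32 and 2 of the 34 pairs.

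Among these neighbours were 8 runs of at least 3 genes, 2 higher and 6 lower under mannitol. The higher run of 4 was LOC116214823, LOC116214822, LOC116214825 and LOC116213226, with log2 fold changes of 1.71, 2.59, 3.26 and 3.54. LOC116214825 had 945, 843, 1810 and 1134 CPM under mannitol and 75.5 and 171 CPM in CK. LOC116213226 had 30.6 and 61.1 CPM at 2.5 g/L and 132 and 97.8 CPM at 15 g/L, against 4.87 and 8.96 CPM in CK. The 2 paclobutrazol 6 mg/L plants differed widely at all 4 genes, with 935 and 29935 counts of LOC116214823 and 145 and 4507 of LOC116213226. LOC116214825 had 82637 to 143929 counts in the 4 B9 plants, against 19284 to 42108 in the mannitol plants. Mannitol and CK did not overlap at any of the 4 genes, which was also true of 27% of all tested genes, and none was called. The 4 genes were picked by unadjusted p and fold in this comparison, so nothing further is read from the lack of overlap. A lower run of 4 held the DEG LOC116209216 with LOC116209220, LOC116209218 and LOC116209217, at log2 fold changes of -2.43, -1.23, -2.23 and -2.00. The other lower run of 4 was LOC116199596, LOC116199599, LOC116200335 and the DEG LOC116198780. LOC116199596 had 1.01 and 0.918 CPM at 2.5 g/L and 0.301 and 0.375 CPM at 15 g/L, against 6.21 and 6.87 CPM in CK. The authors kept uniquely mapped reads only, so near-identical neighbouring copies can lose reads, and whether these runs hold such copies was not tested. Of the 44 tested neighbours of all 27 DEGs, 29 had a change of the same sign as the DEG and 6 of these also passed the unadjusted threshold and fold. Over all tested genes 50.4% had a positive change, and 2.9% passed that threshold and fold upward and 2.45% downward. The difference from these shares was not tested.

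The paclobutrazol and B9 plants give the levels of these DEGs under the other PGRs, in CPM on a common scale over the 14 libraries. Comparisons with CK share the CK plants, so the levels are set side by side and were not tested. They are given for the upregulated and downregulated DEGs with the largest changes, apart from LOC116201290, whose counts stand above. LOC116211229 had 20.2 and 15.0 CPM at 2.5 g/L and 36.7 and 53.0 CPM at 15 g/L mannitol, 34.9 and 0.167 CPM at 6 mg/L and 31.0 and 23.9 CPM at 8 mg/L paclobutrazol, 26.2 and 8.07 CPM at 6 mg/L and 29.2 and 21.8 CPM at 8 mg/L B9, and 0.259 and 0.353 CPM in CK. Paclobutrazol 6 mg/L plant 2 was thus below both CK plants with 3 counts, whereas plant 1 of that condition had 786. The lncRNA gene LOC116198709 had 31 and 4 counts at 6 mg/L and 5 and 0 counts at 8 mg/L paclobutrazol, and 120 and 4 counts at 6 mg/L and 183 and 166 counts at 8 mg/L B9, so that it was also split between the plants of a condition. LOC116196150 averaged 6.71 and 7.09 CPM at 2.5 and 15 g/L mannitol, 5.71 and 5.72 CPM at 6 and 8 mg/L paclobutrazol, 47.0 and 25.6 CPM at 6 and 8 mg/L B9 and 0.113 CPM in CK. Its paclobutrazol plants had 0.754 and 10.7 CPM at 6 mg/L and 3.43 and 8 CPM at 8 mg/L. LOC116194566 averaged 80.2 and 89.8 CPM with mannitol, 90.6 and 33.2 CPM with paclobutrazol, 402 and 195 CPM with B9 and 2.98 CPM in CK at the same doses. The paclobutrazol 6 mg/L mean of LOC116194566 came from plants at 3.50 and 178 CPM, so this gene too differed widely between plants of that condition, and all 4 B9 plants were above all 4 mannitol plants at both genes.

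Of the downregulated DEGs, LOC116198780 had 0 to 6 counts in the 8 plants of the other PGRs, fewer than in either CK plant. LOC116194985 averaged 2.04 and 2.55 CPM with mannitol, 38.1 and 18.0 CPM with paclobutrazol, 0 and 0.312 CPM with B9 and 36.3 CPM in CK. Its paclobutrazol means came from plants at 75.9 and 0.167 CPM (6 mg/L) and at 32.3 and 3.64 CPM (8 mg/L), so the plants of a condition differed widely. LOC116189464 averaged 133 and 101 CPM with mannitol, 1161 and 277 CPM with paclobutrazol, 157 and 188 CPM with B9 and 674 CPM in CK. LOC116203157 averaged 9.84 and 6.39 CPM with mannitol, 33.9 and 39.8 CPM with paclobutrazol, 3.42 and 4.75 CPM with B9 and 46.2 CPM in CK. At LOC116194985, LOC116189464 and LOC116203157 the means of mannitol, B9 and paclobutrazol 8 mg/L lay below the CK mean. The paclobutrazol 6 mg/L mean lay below it at LOC116203157 only. Chosen after its values were seen, LOC116213739 had 219 to 263 CPM in the 4 mannitol plants, 42.7 to 111 CPM in the 8 plants of the other PGRs, and 91.9 and 96.6 CPM in CK. No plant of another PGR overlapped the mannitol plants at this gene.

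**Figure D5:**
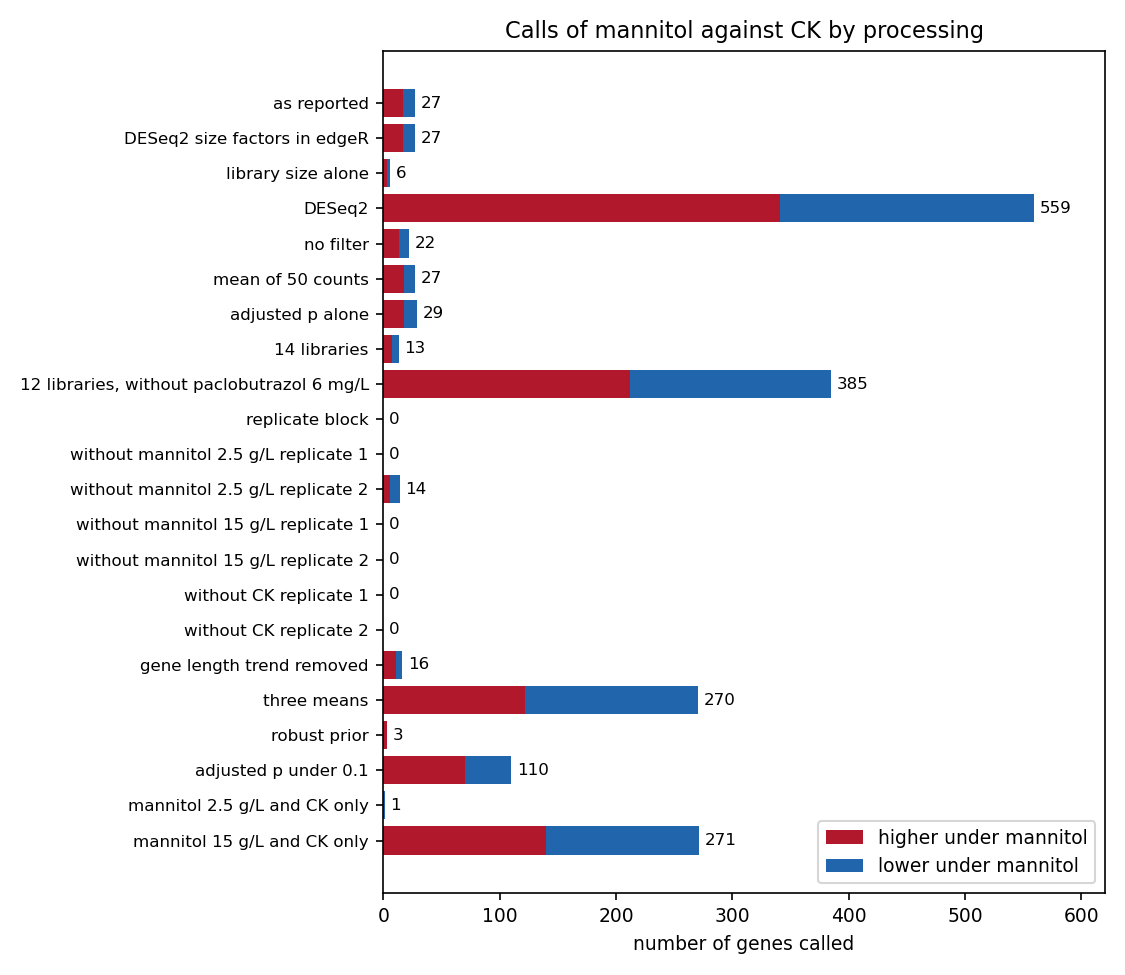
Bars give the number of genes called in mannitol against CK under each processing setting, counted from 0, with genes higher under mannitol in red and lower genes in blue. The count is 27 as reported, 559 with DESeq2, 270 with 3 separate condition means and 0 in 5 of the 6 fits that leave out 1 plant.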

How the data were processed

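Leaf RNA was sequenced on libraries made with a NEBNext Ultra kit. The deposited values were whole-number counts per gene, which the authors made with FastQC, HISAT2 (against a published P. granatum reference genome, uniquely mapped reads only) and featureCounts (versions, build name and strand setting not given in the sources used here), and no column was left unassigned. Of 27893 genes 27509 matched the RefSeq table of assembly ASM765513v2, which gave RNA class, gene length and gene order only. Counts of 22882715 to 25139447 per library were filtered (filterByExpr, minimum 10) and tested in R 4.3.3 with edgeR 4.0.16 (TMM, quasi-likelihood test, Benjamini-Hochberg over all tested genes), mannitol as 1 group against CK. The doses were compared in a fit of 3 condition means. CPM values are counts scaled to a common library size after TMM. DESeq2 1.42.0 was an alternative. The fits were checked on simulated counts. Named DEGs were the 10 in each direction with the smallest adjusted p, ties by fold change, and no overlap between groups; of the genes at the floor, up to 4 in each direction with the highest lowest count in the other group. The comparison, lists and rules were chosen with earlier results of these data known, and RNA classes and neighbour runs after seeing the tables. Planned gene family lists, promoter motifs and leaf markers were not analysed here, for want of product names and sequences.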

Additional observations from a re-analysis of the deposited data

Results flagged for a closer look

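Of the 34 named genes, 3 had a mannitol library whose gap to the other 3 exceeded Dixon's 95% critical value, and chance flags about 1 in 20 groups. LOC116188000 stood at 38.0 CPM in mannitol 2.5 g/L plant 1, against 31.8 to 32.6 CPM in the other mannitol plants. LOC116198780 had 0.0430 CPM in mannitol 15 g/L plant 1 and LOC116202798 had 0.0469 CPM in mannitol 15 g/L plant 2, each from 1 count where the other mannitol libraries had 0.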

How the results depend on the processing

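For mannitol against CK, the 27 calls became 6 with library size alone (3 up and 3 down, against 17 and 10; median log2 change of all genes -0.11), 559 with DESeq2 (341 up and 218 down), 13 and 385 in fits of 14 and 12 libraries, 16 with the gene length trend removed and 270 with 3 condition means (122 up and 148 down). Added after seeing the data, a robust prior gave 3, an adjusted p under 0.1 gave 110, and CK with 2.5 g/L or 15 g/L only gave 1 or 271. The 2.5 g/L fit held 0 of the 27 genes and the 15 g/L fit all 27. The 14-library fit held 4 of the 27 genes, and the 12-library fit, which left out the paclobutrazol 6 mg/L plants, held 26. Leaving out 1 plant gave 0 to 14 calls. For 15 against 2.5 g/L, the 0 calls became 963 with DESeq2, 146 without a filter and 178 in the 12-library fit, and 0 to 78 without 1 plant. The replicate block gave 0 calls against CK (949 genes at an unadjusted p under 0.05 and past the fold; smallest adjusted p 0.0544) and 234 between doses, but shared numbers did not pair the plants (r of their deviations -0.05 and -0.11 for 2.5 and 15 g/L with CK, and 0.27 between doses). The causes were not tested. No DEG changed direction in any of 512 values over 19 settings, of which 219 were still called, 6 to 11 settings a gene. The groups did not overlap at any of the 27 genes, so refitting the same libraries could hardly reverse a direction, and nothing is read from this. With 4 plants against 2, the fit had a biological coefficient of variation of 31.2% and 4 residual degrees of freedom. Settings for gene family lists were not run.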
